A study of Mus musculus with 6 samples.

Results

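The genes described are 10 that encode Toll-like receptors and their coreceptors, Tlr1, Tlr2, Tlr4, Tlr6, Tlr7, Tlr8, Tlr9, Tlr13, Cd14 and Ly96, taken by symbol from the 27179 genes of the deposited table, in which all 10 were found. Of these, 6 act at the cell surface and 4 in the endosome. The cells were YFP+Mac-1+c-Kit+ leukemia-initiating cells (LICs) of the MLL-AF9 mouse model of acute myeloid leukemia. In this model Lin- fetal liver cells are infected with a retrovirus that carries the MLL-AF9 fusion and YFP, and are then transplanted into lethally irradiated C57BL/6 recipients. All libraries therefore carry the oncogene. Of the 6 libraries, 3 were labelled WT (Asic3+/+) and 3 Asic3-null (Asic3-/-), all from the C57BL/6 strain at an age of 8 weeks, and the comparison asked how the RNA of LICs labelled null for the acid-sensing channel gene Asic3 differs from that of LICs labelled WT. The labels do not say whether each library came from a separate mouse, so the p values measure only the spread between these libraries.

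Toll-like receptors are innate immune sensors of myeloid cells. TLR2 with TLR1 or TLR6 binds bacterial lipopeptides at the cell surface, and TLR4 with the soluble cofactor MD-2, encoded by Ly96, binds lipopolysaccharide that CD14 delivers. TLR7, TLR8, TLR9 and TLR13 sense nucleic acids inside endosomes, to which UNC93B1 carries them and in which proteases cut them into their active form. Most signal through the adaptor MYD88 to NF-kB, MAP kinases and interferon regulatory factors.

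All 10 genes were lower in every Asic3-null-labelled library than in every WT-labelled library, where 11.4% of all genes tested were lower without overlap, and in both groups Cd14 and Tlr2 had the highest levels. By the ratio of mean RPKM, the endosomal receptors Tlr7, Tlr8 and Tlr9 differed by more than the cell-surface receptors, an order that did not hold on the log2(RPKM + 1) scale of the test. After adjustment over all genes with a mean of at least 1 RPKM, limma called Cd14, Tlr9 and Tlr13 lower, beside 2.82% of all genes tested. Each of these calls was lost when any 1 library was left out, and other settings called other members, as given below.

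The sequence upstream of the genes is shown because all 10 differed in the same direction, so that motifs of myeloid and inflammatory factors can be compared between them. RefSeq promoter windows for GRCm38.p6 were taken for Tlr1, Tlr2, Tlr6, Tlr8, Tlr9 and Tlr13, in 8 windows. None was taken for Tlr4, Tlr7, Ly96 and Cd14, so these genes were not searched for motifs. The windows below run for 250 bases up to the annotated start, 5′ to 3′ on the strand of the gene. Capitals mark motif matches on either strand. These are the motif of PU.1, the myeloid ETS factor, in the windows of Tlr1, Tlr9 and Tlr13, the NF-kB motif in Tlr2, and the IRF and then the C/EBP motif in Tlr8.
Tlr1 (chr5:64933559-64933808, minus strand): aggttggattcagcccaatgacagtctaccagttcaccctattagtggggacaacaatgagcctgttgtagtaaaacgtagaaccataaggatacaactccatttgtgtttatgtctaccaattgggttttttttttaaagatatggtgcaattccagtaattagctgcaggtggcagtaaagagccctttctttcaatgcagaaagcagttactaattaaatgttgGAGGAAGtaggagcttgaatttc
Tlr2 (chr3:83841609-83841858, minus strand): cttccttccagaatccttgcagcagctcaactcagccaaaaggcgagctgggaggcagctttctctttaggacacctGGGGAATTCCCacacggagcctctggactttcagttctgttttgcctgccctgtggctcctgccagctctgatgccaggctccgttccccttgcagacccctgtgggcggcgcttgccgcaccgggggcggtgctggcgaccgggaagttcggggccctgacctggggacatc
Tlr8 (chrX:167264330-167264579, minus strand): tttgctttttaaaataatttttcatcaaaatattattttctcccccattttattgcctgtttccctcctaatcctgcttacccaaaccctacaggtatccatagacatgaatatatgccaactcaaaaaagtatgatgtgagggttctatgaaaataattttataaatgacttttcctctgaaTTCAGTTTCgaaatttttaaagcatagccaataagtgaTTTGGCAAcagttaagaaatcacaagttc
Tlr9 (chr9:106222348-106222597, plus strand): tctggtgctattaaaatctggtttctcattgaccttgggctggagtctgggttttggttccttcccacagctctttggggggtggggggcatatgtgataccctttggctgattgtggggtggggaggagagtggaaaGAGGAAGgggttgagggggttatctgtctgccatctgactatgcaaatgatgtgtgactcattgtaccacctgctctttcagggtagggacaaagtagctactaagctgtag
Tlr13 (chrX:106143025-106143274, plus strand): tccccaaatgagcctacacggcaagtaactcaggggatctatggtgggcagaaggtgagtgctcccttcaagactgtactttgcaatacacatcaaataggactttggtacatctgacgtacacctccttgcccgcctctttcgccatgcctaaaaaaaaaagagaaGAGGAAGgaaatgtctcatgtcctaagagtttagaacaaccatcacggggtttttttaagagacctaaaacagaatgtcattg

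The PU.1 motif, searched as GAGGAAG on both strands, was in 3 of the 8 windows, at 23 to 17 bases before the start of Tlr1, 83 to 77 before that of Tlr13 and 112 to 106 before that of Tlr9. It was in 10.6% of all 32851 windows of this length. The NF-kB motif was in the Tlr2 window alone among the 8, where 3 overlapping matches span 173 to 163 bases before the start, and in 7.25% of all windows. The C/EBP motif (TTGCNNAA) and the IRF motif (GAAANNGAA) were each in the windows of Tlr6 and Tlr8, and in 9.56% and 7.13% of all windows. The CRE motif (TGACGTCA) was in none of the 8 and in 1.55% of all. These matches describe letters only and carry no measurement of binding. Of the genes whose windows hold the PU.1 motif, Tlr9 and Tlr13 passed the test described below and Tlr1 did not. Of the searched genes without it, Tlr2 and Tlr6 did not pass and Tlr8 was under the filter. Cd14, which passed, was not searched. A link between motif and call was not tested.

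The deposited values are RPKM, in which reads are divided by the length of the gene and the size of the library. Because each value corresponds to whole reads, library sizes of 1947168 to 2381861 reads could be inferred, and 1 read on a 2 kb gene equalled 0.21 to 0.257 RPKM. Asic3 itself ran against its labels, at 6.60 ± 2.51 RPKM in the Asic3-null-labelled libraries and 1.17 ± 0.71 in the WT-labelled ones (SD, n = 3). Its call (limma adjusted p = 0.026) was kept in 7 of 14 alternatives. The paper reports reduced differentiation after Asic3 deletion, and the neutrophil markers given below were lower in the Asic3-null-labelled libraries. An exchange of labels was not tested, so the groups are called by their labels throughout. Xist was high in the Asic3-null-labelled libraries (58.0 ± 12.9 RPKM) and the 4 genes of the Y chromosome checked (Eif2s3y, Ddx3y, Kdm5d and Uty) were listed at 0 there, so the sex of the sequenced cells cannot be told apart from the genotype label. The sort markers Itgam (Mac-1) and Kit (c-Kit) were present in all libraries, as were Ptprc and Cd34, which were not used in the sort. Itgam was lower in the Asic3-null-labelled libraries (14.0 ± 2.51 against 76.8 ± 18.8 RPKM, limma adjusted p = 0.000720). The T cell genes Cd3e, Cd4 and Cd8a and the B cell gene Ms4a1 were at 0 in all libraries, while Cd79b, another gene of the B cell list, was at 37.3 to 47.2 RPKM in the Asic3-null-labelled libraries and 41.7 to 49.0 in the WT-labelled ones.

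Markers of more mature myeloid cells moved with the receptors. All 8 tested neutrophil markers were called lower in the Asic3-null-labelled libraries, with a sum of 124 to 251 RPKM there against 3339 to 3882 in the WT-labelled ones. Of 9 tested monocyte markers 4 were called lower (Csf1r, Ccr2, F13a1 and Adgre1), and these 4 summed to 97.4 to 117 against 263 to 340 RPKM. The whole list of 10 summed to 1265 to 1438 against 1833 to 1967 RPKM, most of it Ly6c2, which was not called (1039 ± 86.6 against 1316 ± 59.9 RPKM, limma adjusted p = 0.166). The summed dendritic cell markers, nearly all Flt3, lay between 175 and 208 against 124 and 185 RPKM. The other markers of that list had means of 0.0238 (Zbtb46) to 0.367 (Itgax) RPKM over all libraries, so the sum describes Flt3. In sorted bulk cells, fewer cells of a type and less RNA per cell cannot be told apart, and the part of these markers in the differences below was not tested.

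Cd14, a lipid-anchored coreceptor that hands lipopolysaccharide to TLR4 and lipopeptides to TLR2, had the highest level of the 10 genes. Its RPKM was 43.5, 75.1 and 54.5 in the WT-labelled libraries and 14.4, 25.0 and 26.7 in the Asic3-null-labelled ones. The lowest WT-labelled library lay well above the highest of the other group. The means of 57.7 ± 16.1 and 22.0 ± 6.66 RPKM (SD, n = 3) were 2.62-fold apart, with 549 against 233 reads over the 3 libraries of each group. On log2(RPKM + 1), the scale of all log2 fold changes given here, the difference was -1.36 (SE 0.26, limma adjusted p = 0.0279). Without any 1 library the adjusted p from limma lay between 0.0552 and 0.113, and over all 15 alternatives between 0.00904 and 0.285.

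Ly96 encodes MD-2, the part of the TLR4 complex that binds lipopolysaccharide. It was listed at 3.94, 3.41 and 2.80 RPKM in the WT-labelled libraries and at 1.43, 2.09 and 2.12 RPKM in the Asic3-null-labelled ones, again without overlap. These values rest on 13 and 8 reads in all. The exact Poisson 95% intervals of these sums, which cover counting error only, were 6.92 to 22.2 and 3.45 to 15.8 reads and overlapped, so a difference in Ly96 was not detectable at this depth by its reads. The log2 fold change was -0.61 (SE 0.25, limma adjusted p = 0.273).

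Tlr2, the shared subunit of the lipopeptide receptors, was the most abundant receptor. It had 27.2, 19.6 and 19.8 RPKM in the WT-labelled libraries and 6.20, 11.3 and 15.1 in the Asic3-null-labelled ones. The groups did not overlap, though the third Asic3-null-labelled library came close to the lower pair of the other group. The means differed 2.04-fold (22.2 ± 4.29 and 10.9 ± 4.45 RPKM), and the log2 fold change of -1.03 (SE 0.29) did not pass the test (limma adjusted p = 0.109). With limma-voom on the recovered reads Tlr2 was called, with an adjusted p of 0.0413.

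Its partners followed the same order at lower levels. Tlr1, which pairs with TLR2 for triacylated lipopeptides, had 9.82, 5.20 and 4.28 RPKM in the WT-labelled libraries against 2.52, 2.29 and 2.49 in the Asic3-null-labelled ones. The Asic3-null-labelled libraries were nearly equal, while the first WT-labelled library stood above the other two of its group. Its log2 fold change was -1.04 (limma adjusted p = 0.106), and -0.74 without that library. Tlr6, which pairs with TLR2 for diacylated lipopeptides, had 5.12, 2.57 and 3.74 against 2.16, 1.61 and 1.47 RPKM, and its log2 fold change was -0.78 (limma adjusted p = 0.213). The 2 genes lie close together on chromosome 5 (Tlr1 at 64924680 to 64933600, Tlr6 at 64953092 to 64970942 of GRCm38) and share 454 stretches of 50 bases, 13.6% of those in Tlr1 and 12.3% of those in Tlr6, so how reads were divided between them is uncertain.

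Tlr4, the lipopolysaccharide receptor, was barely detected in these cells. It had 0.618, 1.20 and 1.32 RPKM in the WT-labelled libraries and 0.561, 0.327 and 0.553 in the Asic3-null-labelled ones, from 5, 9 and 12 against 5, 3 and 5 reads. The lowest value of the first group and the highest of the second both rest on 5 reads, and the Poisson intervals of the sums (17 to 38.1 and 6.92 to 22.2 reads) overlapped. With a mean of 0.763 RPKM over all libraries it fell under the filter of 1 RPKM and was not tested. In the limma fit with no filter its log2 fold change was -0.45 (adjusted p = 0.361).

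**Figure D1:**
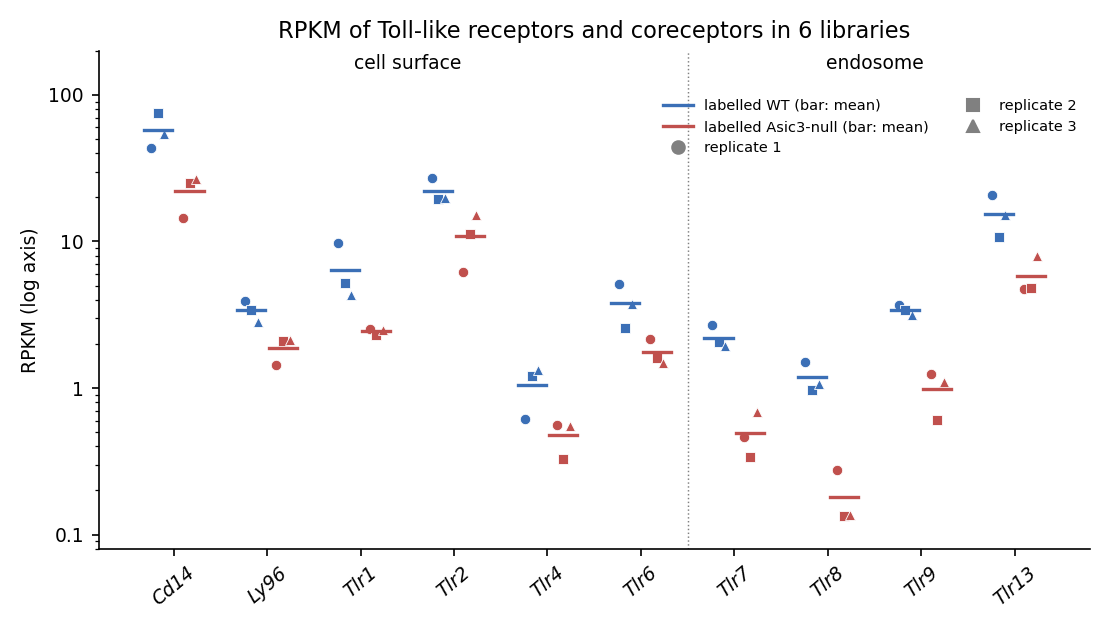
RPKM on a log axis for each of the 10 genes in the 3 WT-labelled libraries (blue) and the 3 labelled Asic3-null (red), with a bar at each group mean and the replicate number as the symbol. In each gene the blue points lie above the red ones, with the narrowest gap in Tlr4 (0.618 against 0.561 RPKM).

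By the ratio of mean RPKM, the endosomal receptors Tlr7, Tlr8 and Tlr9 differed by more than any cell-surface gene and Tlr13 by about as much as Tlr1 and Cd14. On log2(RPKM + 1), Cd14 had the largest difference of all 10, and Tlr8 (-0.88) differed by less than Tlr1 and Tlr2. Tlr9, the receptor of unmethylated CpG DNA (chromosome 9, 106222598 to 106226876), had 3.70, 3.40 and 3.16 RPKM in the WT-labelled libraries and 1.24, 0.605 and 1.10 in the Asic3-null-labelled ones. The WT-labelled libraries were close to each other and the groups did not overlap, 3.42 ± 0.268 against 0.984 ± 0.336 RPKM, a 3.48-fold difference. The log2 fold change was -1.17 (SE 0.26, limma adjusted p = 0.0459), and without any 1 library the limma adjusted p lay between 0.0809 and 0.129.

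Tlr13, which senses bacterial ribosomal RNA, was the most abundant endosomal receptor. Its RPKM was 20.7, 10.7 and 15.2 in the WT-labelled libraries and 4.73, 4.81 and 7.96 in the Asic3-null-labelled ones. The groups did not overlap, with 403 against 165 reads. The fold was 2.66 and the log2 fold change -1.26 (SE 0.27, limma adjusted p = 0.0427), with an adjusted p of 0.0535 to 0.159 without any 1 library.

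Tlr7 and Tlr8, receptors of single-stranded RNA and its breakdown products, lie side by side on chromosome X (167303380 to 167330574 and 167241123 to 167264329). Tlr7 had 2.67, 2.06 and 1.92 RPKM in the WT-labelled libraries against 0.461, 0.336 and 0.682 in the Asic3-null-labelled ones, a 4.49-fold difference of the means. Its log2 fold change of -1.11 (SE 0.28) missed the threshold (limma adjusted p = 0.0760) and passed it in 3 of 14 alternatives. The groups of both genes were far apart. Tlr8 had 1.51, 0.976 and 1.07 against 0.274, 0.133 and 0.135 RPKM. That is the widest ratio of the 10 genes, 6.56-fold, but it rests on 24 against 4 reads (Poisson intervals of the sums 15.4 to 35.7 and 1.09 to 10.2). With a mean of 0.682 RPKM Tlr8 was under the filter, and in the limma fit without one its log2 fold change was -0.88 (adjusted p = 0.0414). Adding 1 RPKM before the log understates the change of genes this low.

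Over all genes tested, 2.82% were called lower and 0.523% higher in the Asic3-null-labelled libraries. Against that, 3 of the 8 receptors and coreceptors tested were called lower (Cd14, Tlr9 and Tlr13) and 0 higher by limma, and all 8 had an unadjusted p under 0.05, all in the lower direction, where 15.9% of all genes tested had one and 9.45% had one in the lower direction. Of the 8, Tlr7 and Tlr9 had a mean under 1 RPKM in the Asic3-null-labelled libraries and passed the filter through the other group, so this count is given as a description. The fit with no filter held all 10 genes and called 2, Tlr7 and Tlr8, not the 3 above, where 1.45% of all genes were called lower. Limma-voom on the recovered reads called 5 of the 8 (Cd14, Tlr2, Tlr7, Tlr9 and Tlr13), where 3.75% of all genes were called lower. The groups did not overlap in 10 of the 10 genes, all lower, while 11.4% of the genes tested were lower and 11.2% higher without overlap. For each single gene, the exact permutation test gave a two-sided p of 0.10, the smallest that 3 against 3 libraries allow. The 10 genes were chosen with earlier results of these data known, and they share the same 6 libraries.

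**Figure D2:**
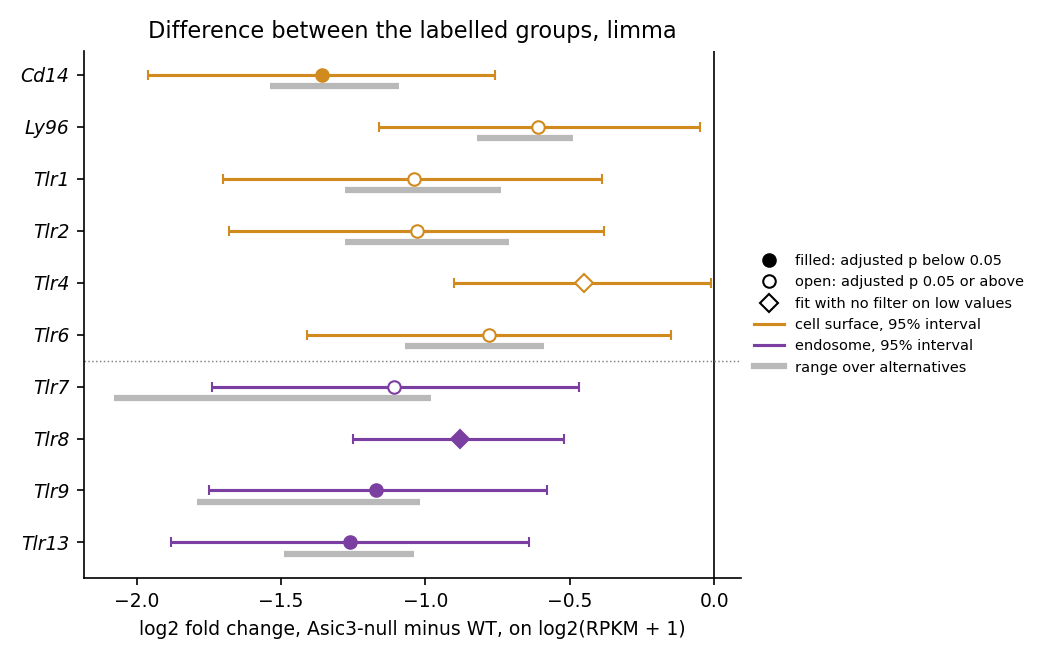
Log2 fold change on log2(RPKM + 1), Asic3-null minus WT, with its 95% interval from limma, for cell-surface (orange) and endosomal (purple) genes. Filled symbols have an adjusted p under 0.05, diamonds mark Tlr4 and Tlr8 from the fit with no filter, and grey bars span the alternatives, all of which lie below 0.

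By level, the order in the WT-labelled libraries was Cd14, Tlr2, Tlr13, Tlr1, Tlr6, Tlr9, Ly96, Tlr7, Tlr8 and Tlr4. Neighbours whose ranges over the 3 libraries overlapped there were Tlr2 and Tlr13, Tlr1 and Tlr6, Tlr6 and Tlr9, Tlr9 and Ly96, and Tlr8 and Tlr4. In the Asic3-null-labelled libraries the order was Cd14, Tlr2, Tlr13, Tlr1, Ly96, Tlr6, Tlr9, Tlr7, Tlr4 and Tlr8. The ranges of Cd14 and Tlr2, Tlr2 and Tlr13, Ly96 and Tlr6, Tlr9 and Tlr7, and Tlr7 and Tlr4 overlapped. The first 4 genes thus kept their places, and Tlr8 stood last.

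The endosomal and the cell-surface receptors were then compared within each library, so that library size and any common shift cancel. The geometric mean of Tlr7, Tlr8, Tlr9 and Tlr13 divided by that of Tlr1, Tlr2, Tlr4 and Tlr6 was 0.777, 0.695 and 0.697 in the WT-labelled libraries and 0.445, 0.312 and 0.403 in the Asic3-null-labelled ones. The endosomal receptors stood lower relative to the cell-surface receptors in each Asic3-null-labelled library, without overlap between groups. This ratio gives Tlr7 and Tlr8 the same weight as the others, though Tlr7 had 3 to 6 reads and Tlr8 1 to 2 in each Asic3-null-labelled library. With Tlr9 and Tlr13 alone over the 4 cell-surface receptors, a choice made after seeing the data, the ratio was 1.62, 1.43 and 1.53 against 1.16, 0.888 and 1.26. With Tlr4 left out as well, it was 0.788, 0.943 and 1.02 against 0.749, 0.492 and 0.777, and the gap between the groups nearly closed. Both classes were lower than in WT-labelled libraries. The cell-surface geometric mean was 5.39, 4.21 and 4.52 against 2.09, 1.92 and 2.35 RPKM. The endosomal one was 4.19, 2.93 and 3.15 against 0.928, 0.601 and 0.948 RPKM.

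By summed RPKM, which Tlr2 and Tlr13 dominate, the contrast was weaker. The endosomal receptors made up 40.1%, 37.5% and 42.2% of the RPKM of the 8 receptors in the WT-labelled libraries and 37.0%, 27.4% and 33.5% in the Asic3-null-labelled ones. The groups were separated by less than the spread within the second. Tlr13 gave 62.5% to 81.8% of the endosomal sum and Tlr2 54.2% to 76.9% of the cell-surface sum over the 6 libraries. On log2(RPKM + 1) the median log2 fold change was -0.90 over the 6 cell-surface genes and -1.14 over the 4 endosomal ones. These include Tlr4 and Tlr8, which were under the filter. Over the tested genes alone the medians were -1.03 (5 cell-surface) and -1.17 (3 endosomal), beside 0.03 over all genes tested. With a pseudocount of 0.1 the medians over the 6 and the 4 genes were -1.07 and -1.87. No test was made over the classes.

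**Figure D3:**
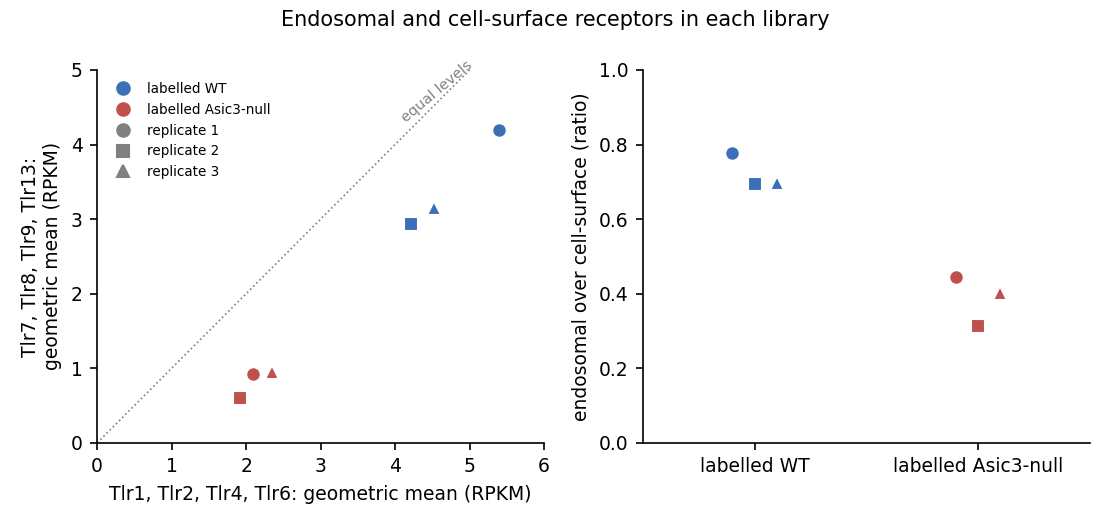
Left, geometric mean RPKM of the 4 endosomal against the 4 cell-surface receptors in each library, with a dotted line of equal levels; right, their ratio. The WT-labelled libraries lie at ratios of 0.695 to 0.777 and the Asic3-null-labelled ones at 0.312 to 0.445.

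Of the endosomal receptors, Tlr7, Tlr8 and Tlr13 lie on chromosome X, and the groups differed in the sex of the cells. The 345 tested genes of the X chromosome had a median log2 fold change of 0.09 (quartiles -0.12 and 0.26), with 7 called lower and 6 higher, and 2.03% called lower. On the autosomes the median was 0.04 and 2.85% were called lower. The log2 fold changes of Tlr7 and Tlr13 were -1.11 and -1.26, and that of the autosomal Tlr9 was -1.17. The part of the sex of the cells in these differences was not tested.

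The remaining Toll-like receptor genes of the mouse were nearly silent. Tlr11 was listed at 0 in all libraries, Tlr3 had 1 read in 1 library and Tlr5 had 2 reads in 1 library. Tlr12 had 0.408, 0.661 and 0.403 RPKM in the Asic3-null-labelled libraries against 0.300, 0.162 and 0 in the WT-labelled ones, from 5 reads at most. None of the 4 passed the filter.

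Further genes of the pathway were taken from a list of 102, of which 101 were in the table and 83 were tested. Of these, 6 were called lower and 0 higher by limma, 7.23% lower beside 2.82% of all genes tested, and their median log2 fold change was -0.11. At an unadjusted p under 0.05 there were 17, or 20.5%, none of them higher, beside 15.9% of all genes tested in either direction and 9.45% in the lower one. Limma-voom on the recovered reads called 8 lower and 0 higher, where 3.75% of all genes were called lower. Of the 6, 5 were among the 9 proteases and nucleases of the endolysosome.

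Among these enzymes, PLD4, an endolysosomal exonuclease that degrades nucleic acid ligands of TLR7 and TLR9, had the lowest p. Pld4 was at 365, 223 and 185 RPKM in the WT-labelled libraries and 76.4, 48.4 and 77.1 in the Asic3-null-labelled ones, with a log2 fold change of -1.89 (SE 0.27, limma adjusted p = 0.00650). The proteases that cut endosomal Toll-like receptors were lower as well. Ctss (cathepsin S) had 265, 193 and 184 against 104, 68.8 and 77.0 RPKM (log2 fold change -1.36, limma adjusted p = 0.00653). Ctsl (cathepsin L) had 49.9, 69.0 and 59.6 against 27.4, 25.8 and 30.2 RPKM (-1.06, limma adjusted p = 0.00748). Pld4, Ctss and Ctsl kept their calls in 14 of 15 alternatives, where Cd14 kept its call in 6 of 15, Tlr13 in 5 of 15 and Tlr9 in 3 of 14. Lgmn (asparagine endopeptidase) had means of 6.00 ± 1.45 and 1.44 ± 0.326 RPKM (-1.51, limma adjusted p = 0.0145), a call kept in 9 of 14 alternatives. Ctsb (cathepsin B) differed 1.45-fold (-0.53, limma adjusted p = 0.0475), a call kept in 2 of 15. The remaining enzymes of this group, Pld3 (-0.07), Dnase2a (-0.04), Rnaset2a (-0.20) and Rnaset2b (0.04), were not called. Their limma adjusted p lay between 0.556 and 0.928.

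UNC93B1, the chaperone without which endosomal receptors do not leave the endoplasmic reticulum, was abundant. Unc93b1 had 374, 309 and 279 RPKM in the WT-labelled libraries and 252, 226 and 223 in the Asic3-null-labelled ones, without overlap. Its log2 fold change of -0.45 did not pass the test (limma adjusted p = 0.140). By the ratio of means, this carrier differed 1.37-fold and the 4 endosomal receptors between 2.66-fold (Tlr13) and 6.56-fold (Tlr8). Lbp, which transfers lipopolysaccharide to CD14, had means of 70.6 ± 6.99 and 55.8 ± 6.76 RPKM (-0.34, limma adjusted p = 0.294).

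Downstream of the receptors, 0 of 5 tested adaptors and 0 of 16 kinases and ubiquitin enzymes were called by limma (1 of each had an unadjusted p under 0.05), and limma-voom called Ikbke alone. With 2.82% of all genes tested called lower, counts of 0 among so few genes are near the background share, here and for the other downstream groups. Myd88, the common adaptor, had 72.6, 52.0 and 44.3 RPKM in the WT-labelled libraries and 37.0, 46.5 and 35.3 in the Asic3-null-labelled ones, and these ranges overlapped (log2 fold change -0.48, limma adjusted p = 0.284). The ranges of Irak4, the kinase that MYD88 recruits, overlapped too, with means of 21.0 ± 4.50 and 16.2 ± 1.23 RPKM (-0.34, limma adjusted p = 0.401). Ikbke, the kinase with the lowest p, had means of 32.6 ± 18.0 and 12.6 ± 1.16 RPKM (-1.19, limma adjusted p = 0.0859). In the 8 tested genes of the IKK complex and NF-kB, with Relb at the lowest p (-0.84, limma adjusted p = 0.245), and in the 3 interferon regulatory factors none was called by limma, and 3 had an unadjusted p under 0.05. Irf5 was called with limma-voom and in the limma fit with the replicate block. Irf5, which acts downstream of MYD88, had 144, 88.9 and 123 against 84.3, 48.4 and 57.9 RPKM (-0.90, limma adjusted p = 0.0847).

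In the MAP kinase arm 1 of 12 tested genes was called lower. This was Map3k8, the kinase TPL2, with 7.59, 6.15 and 7.41 RPKM in the WT-labelled libraries and 2.07, 2.34 and 2.04 in the Asic3-null-labelled ones (log2 fold change -1.35, SE 0.21, limma adjusted p = 0.00943). The groups were 3.28-fold apart and the call was kept in 12 of 14 alternatives. None of 15 tested negative regulators was called by limma or limma-voom (2 had an unadjusted p under 0.05), and Socs1 had the lowest p among them (-0.71, limma adjusted p = 0.221). Of the inflammatory genes that these receptors can induce, 0 of 7 tested were called by limma or limma-voom, 1 had an unadjusted p under 0.05, and their median log2 fold change was 0.11. Tnf, that gene, ranged widely within groups, at 46.7, 62.2 and 118 against 67.2, 15.6 and 25.3 RPKM (-1.20, limma adjusted p = 0.283).

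**Figure D4:**
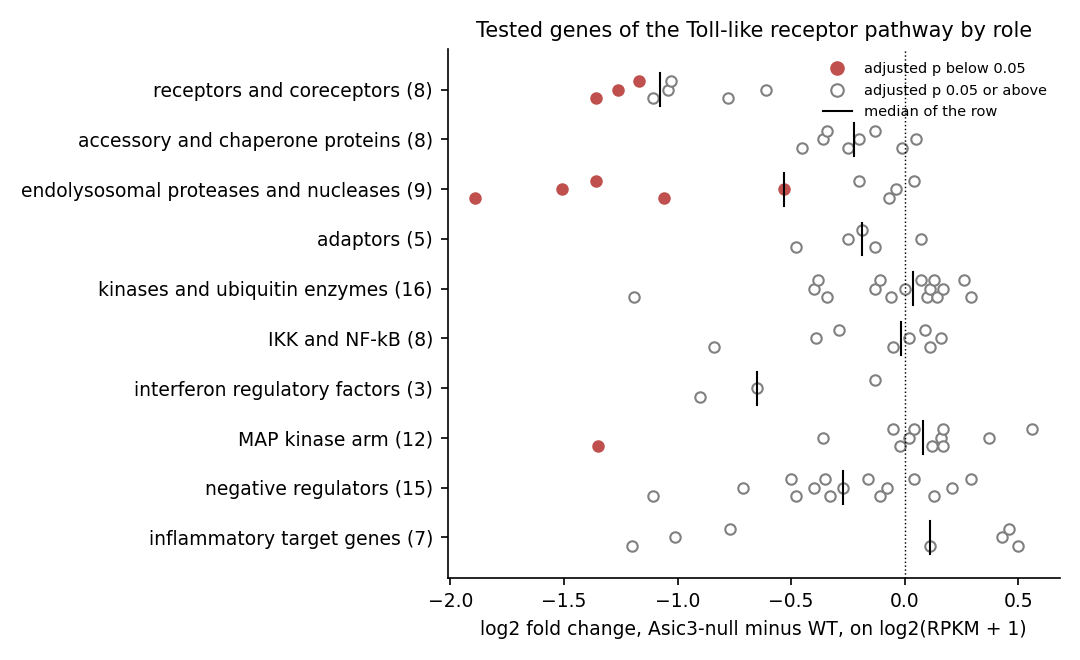
Log2 fold change on log2(RPKM + 1), Asic3-null minus WT, of each tested gene of the pathway by role, with the number tested in parentheses, a black line at the median of each row and red points at an adjusted p under 0.05. Red points occur in the receptors and coreceptors (3), the endolysosomal enzymes (5) and the MAP kinase arm (1).

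Cd14 had both the highest mean level and the lowest unadjusted p of the tested genes of the set (chromosome 18 of GRCm38, 36725064 to 36726815). The 5 tested genes whose profile over the 6 libraries was nearest to it, by the root mean square difference of centred log2(RPKM + 1), were Gm4945 (0.11), Tctex1d1 (0.15), Pilrb2 (0.17), Lst1 (0.17) and Lat (0.18), where the median over all genes tested was 0.82. Lst1, a leukocyte-specific transcript, was at 110 RPKM on average in the WT-labelled libraries and 40.9 in the Asic3-null-labelled ones. Gm4945, at 2.75 and 0.618 RPKM, and Lat, at 3.84 and 1.03 RPKM, were far lower than Cd14.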

How the data were processed

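Total RNA of sorted LICs was sequenced in 6 libraries, grouped by their labels into WT and Asic3-null, 3 of each. Base calling (CASAVA 1.8.2) and alignment to GRCm38 (TopHat2 2.0.12) were done by the authors, who deposited the result as RPKM. The counting tool is not given in the sources used here. Whole reads were recovered from the RPKM of all 16825 genes above 0 (within 0.0001 reads), at least 99.6% of each library size, with a median of 81.0 reads per tested gene. Reads carry no molecular identifiers, so intervals cover counting error only.

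The test was limma 3.58.1 (R 4.3.3) with an intensity trend on log2(RPKM + 1), the label being the only term, over the 12037 genes whose mean was 1 RPKM or more. Benjamini-Hochberg adjusted p values under 0.05 were called, and the step was tested on simulated data. The other steps used Python 3.11.15, numpy 2.4.6, pandas 2.3.3 and scipy 1.17.1. RefSeq gave gene names and promoter windows, and GENCODE M21 transcripts the shared stretches.

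The members, lists, tests and alternatives were chosen with earlier results of these data known. Genes named were the 10 members, each called gene of the pathway list, the gene with the lowest p of each role without a call, Tlr3, Tlr5, Tlr11, Tlr12, Unc93b1, Myd88, Irak4 and Lbp, the label checks and the 5 profiles nearest to the member with the lowest p and to that with the highest mean. The 4 called monocyte markers, Ly6c2, Flt3, Zbtb46, Itgax, Cd79b, Pld3, Dnase2a, Rnaset2a and Rnaset2b were named after their values were seen. Tasl matched no row, and a few marker genes are not reported here. The alternatives were quantile normalization, scaling by median ratios, a pseudocount of 0.1, a filter at 5 RPKM or none, limma without the intensity trend, untransformed RPKM without moderation, a replicate block, limma-voom on the recovered reads, and each library left out in turn.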

Additional observations from a re-analysis of the deposited data

How the results depend on the processing

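The direction of each tested gene of the 10 was the same under every alternative it entered, but the calls were not. The 3 calls became 0 on untransformed RPKM without moderation, 0 with any 1 library left out, and 5 with limma-voom on the recovered reads. At an unadjusted p under 0.05 the limma fits without 1 library still held 6 to 8 of the 8 genes, and the untransformed test 6. The 6 calls of the pathway list became 3 at a mean RPKM of at least 5, 0 on untransformed RPKM, and 3 to 5 without 1 library. The 403 calls over all genes became 4 on untransformed RPKM and 172 to 258 without 1 library. The median log2 fold change of the 4 endosomal genes became -1.87 with a pseudocount of 0.1. The cause of these changes was not tested. Libraries with the same replicate number did not deviate together (correlations of 0.059, -0.059 and -0.123). These values cannot tell whether the samples were paired by design, because none for different numbers stand beside them. With the replicate block, 1 of the 8 genes tested (Cd14, limma adjusted p = 0.0128) and 246 of all genes were called. Depth limits Ly96, Tlr4 and Tlr8 most, at 4 to 26 reads per group.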
